A study of Homo sapiens with 13 samples.

Results

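The direction of DNA replication was compared between PC9 cells treated for 14 days with 500 nM osimertinib (2 libraries) and untreated PC9 cells (3 libraries, titled day 0). These are 5 of the 13 libraries of the series, chosen by the day in their titles. PC9 is an established human non-small cell lung cancer line that depends on a mutant epidermal growth factor receptor, EGFR, and osimertinib inhibits that mutant receptor. The drug was dissolved in DMSO. The labels call the day 0 cells untreated, without saying whether they received the vehicle. The labels do not say whether replicates came from separate cultures, so the p-values measure the spread between libraries, which may be technical. The state of the day 14 cultures at harvest is not stated; the day 0 cells were growing normally. The other libraries are from day 7 (2), day 28 (4) and 2 drug-resistant lines. Each of these lines was grown out from a single-cell clone and maintained in 500 nM osimertinib.

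TrAEL-seq captures the free 3' ends of DNA, many of which lie at replication forks, on 1 strand or the other depending on which way the fork moves. A replication origin sends forks out to both sides, so fork direction turns from leftward to rightward across a region of initiation, and turns back where forks from neighbouring regions meet. The deposited value is the polarity of a 20 kb window, on a scale from -100 to 100. Here a positive value was taken to mean mainly rightward forks. This rests on the shape of the profile, whose rises are steeper than its falls, as no source used here states the sign. With the sign turned, initiation and termination would exchange places.

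Of 143736 non-overlapping windows on chromosomes 1 to 22, 112553 (78.3%) held a value in all 5 libraries. The untreated libraries resembled each other, with Pearson's r from 0.847 to 0.873 across windows. The 2 day 14 libraries gave an r of only 0.359 with each other. Day 14 replicate 1 gave 0.432 to 0.459 with the untreated libraries, and day 14 replicate 2 gave 0.598 to 0.619. These windows share neighbouring forks and the r values describe the libraries only. Window-to-window noise was 13.5 to 25.3 points in the untreated libraries, against 32.4 and 35.7 points at day 14. Read depth is unknown, and its part in the results was not tested.

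After 14 days of osimertinib the whole fork direction profile was flatter. It still rose and fell on average where the untreated profile did. No zones were called at day 14, so whether each kept its place was not tested. The amplitude of the profile is the slope of a library's polarity on that of untreated libraries. It was 0.960, 1.02 and 0.794 in the untreated libraries and 0.362 and 0.659 at day 14. All 3 untreated values lay above both day 14 values. The means were 0.926 ± 0.119 (SD, n = 3) and 0.510 ± 0.210 (SD, n = 2), so that day 14 kept 55.1%, or 39.1% in replicate 1 and 71.1% in replicate 2. The exact two-sided permutation test gave p = 0.2, the smallest that 3 libraries against 2 allow, and 0.24 after adjustment over 6 comparisons.

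Regions of initiation and termination lost contrast together. Across initiation zones, called in untreated pairs as unbroken rises through 0 of at least 40 points, the mean rise was 90.5, 95.8 and 79.6 points in untreated libraries. It was 27.7 and 52.0 points at day 14, or 44.98% of the untreated mean. Across termination zones, the mirror image, polarity fell by 78.7, 85.2 and 65.4 points without drug and by 22.04 and 42.7 points at day 14, or 42.3%. Neither measure overlapped between groups (exact permutation p = 0.2 for each, adjusted 0.24). Each library was measured on zones called without it.

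In windows replicated mainly in 1 direction, polarity became weaker at day 14. Whether the forks changed direction was not tested, as the share of captured ends away from forks is unknown. In 4900 windows that were strongly leftward in the resistant lines, which belong to neither group, mean polarity was -76.1, -78.3 and -71.3 in untreated cells and -32.0 and -56.4 at day 14. In 4786 strongly rightward windows it was 75.9, 78.1 and 70.7, against 32.6 and 56.8. In the strongly leftward windows direction was largely kept: 81.3% and 92.5% had the resistant lines' sign at day 14, against 99.02% to 99.4% without drug. The shares were lower elsewhere. They also depend on window-to-window noise, which was larger at day 14 (32.4 and 35.7 points) than without drug (13.5 to 25.3). The part of noise in them was not tested. In 28880 moderately leftward windows the shares were 66.9% and 76.8% at day 14, against 86.9% to 90.9% without drug. In 45306 windows with little direction in the resistant lines they were 50.2% and 54.2%, against 59.6% to 63.0%.

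The loss was seen zone by zone. Initiation zones were called this time in the mean of the 2 resistant lines, which gave 2080 zones with a median width of 160 kb, of which 1918 could be tested. In the limma fit over these zones, 1037 (54.1%) passed an adjusted p of 0.05, of which 1036 were lower at day 14 and 1 was higher. The median rise over all tested zones was 102 points in untreated cells and 49.2 points at day 14. At an unadjusted p under 0.05 there were 1219 (63.6%). The groups did not overlap in 1409 zones (73.5%). In 1402 zones (73.1%) both day 14 libraries lay below all untreated libraries, and in 7 zones (0.365%) both lay above them. Day 14 replicate 2 kept the larger rise in 1466 zones (76.4%). With libraries weighted by their scatter about the group mean (array weights in limma, below called noise weights) 661 zones passed. This scatter is not the window-to-window noise given above, and it includes differences in amplitude between the libraries of a group. The 2 day 14 libraries lie equally far from their mean, so these weights cannot tell them apart. Without untreated replicate 2 only 169 zones passed. The share kept varied little with zone strength: over classes of zones of rising strength in the resistant lines, replicate 1 kept 31.7% to 36.4% and replicate 2 kept 59.5% to 65.4%. After each library was divided by its own amplitude, 0 zones passed (limma), with 358 at an unadjusted p under 0.05. Division by their low amplitudes also enlarges the noise of the day 14 libraries, so the count of 0 cannot show an even loss.

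**Figure D1:**
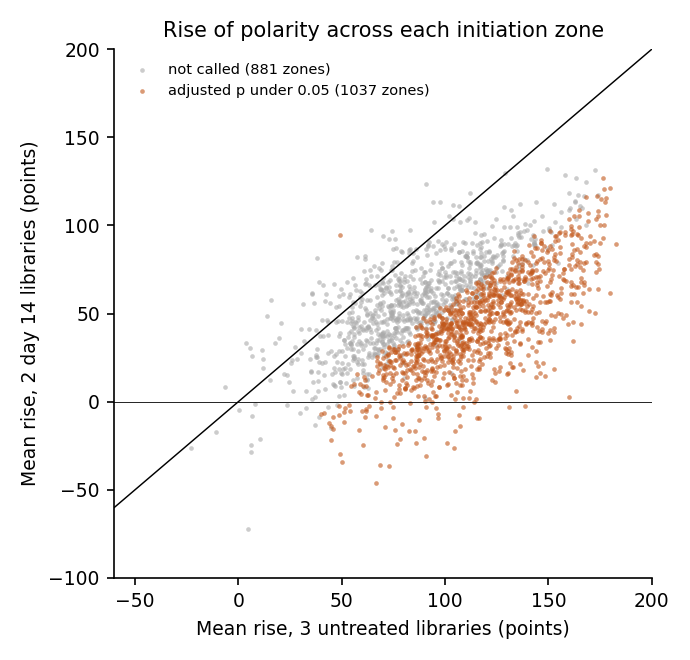
Each point is 1 of 1918 initiation zones, with its mean rise of polarity in 3 untreated libraries (horizontal axis, points) and in 2 day 14 libraries (vertical axis, points); the diagonal marks equal values. Of the 1037 zones past an adjusted p of 0.05 (orange), 1036 lie below the diagonal.

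The zones with the largest decreases went from strong to flat. The largest was at chr4:84480001-84620000 (GRCh38, as all coordinates here), which touches CDS1, an enzyme of phosphatidylinositol synthesis, and NKX6-1, a homeobox factor. Its rise was 167, 165 and 148 points in untreated libraries and 13.3 and -7.63 at day 14. Both day 14 libraries lay far below the untreated ones (difference -157 ± 18.4, SE, limma adjusted p = 0.00457). Values after ± are SD here and below (n = 3 untreated, n = 2 day 14), and adjusted p-values of zones and genes are from limma. The zone at SAMD5 and STXBP5 (chr6:147340001-147700000) went from 139 ± 8.68 to -2.21 ± 42.4 points. The zone at ITGAV, the integrin alpha V subunit (chr2:186500001-186640000), went from 153 ± 31.6 to 18.5 ± 22.6 points. The zone at DYNC1I1, a dynein intermediate chain (chr7:96040001-96160000), went from 131 ± 7.57 to -3.26 ± 33.5 points. All 4 calls held in each of 11 refits that left out a library or changed the fit, other than division by the amplitude.

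The only zone that passed as higher lay at METTL9, a histidine methyltransferase (chr16:21540001-21620000). Its rise was 42.3, 52.9 and 52.0 points in untreated libraries and 93.2 and 96.1 points at day 14 (difference 45.6 ± 15.8, SE, limma adjusted p = 0.0329). The day 14 values are close together and above all untreated ones, but the call held in only 4 of 11 refits. It was lost with noise weights (limma adjusted p = 0.116), among others.

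Among the 1002 zones with an untreated rise of at least 100 points, 729 passed as changed, against 1037 of all 1918 tested zones (54.1%). These zones were picked by untreated values that the test also used, which favours a decrease. Their count is thus no result about strong zones. The 4 of them with the smallest differences had nearly equal group means. The zone at GREB1L, which acts in kidney and inner ear development (chr18:21140001-21300000), had 137, 110 and 140 points without drug and 91.7 and 168 at day 14. Its day 14 libraries lie on either side of the untreated range, so the near-equal means (129 and 130) average unlike libraries. The zone at POP4, a ribonuclease P subunit (chr19:29520001-29740000), had 102 ± 0.995 and 105 ± 28.6 points. The zone at CECR2, a bromodomain protein (chr22:17460001-17660000), had 107 ± 25.4 and 111 ± 33.0 points. The zone nearest ALG10B, 116687 bases away on chromosome 12, had 104 ± 9.34 and 104 ± 14.7 points.

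A promoter from each kind of zone is shown as an example. The 250 bases before the start of CDS1 (zone flattened), METTL9 (zone higher at day 14) and GREB1L (near-equal group means, with unlike day 14 libraries) follow, 5' to 3' on the gene's strand, from RefSeq on GRCh38.p14, with CpG dinucleotides, the usual target of DNA methylation, in capitals.
CDS1, chr4:84582877-84583126, plus strand: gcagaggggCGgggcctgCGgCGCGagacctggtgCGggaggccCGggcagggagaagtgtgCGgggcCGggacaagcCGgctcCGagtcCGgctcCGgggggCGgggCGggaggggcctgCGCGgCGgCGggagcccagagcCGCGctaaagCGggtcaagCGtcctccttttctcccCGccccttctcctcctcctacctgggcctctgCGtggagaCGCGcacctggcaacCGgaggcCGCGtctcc
METTL9, chr16:21596958-21597207, plus strand: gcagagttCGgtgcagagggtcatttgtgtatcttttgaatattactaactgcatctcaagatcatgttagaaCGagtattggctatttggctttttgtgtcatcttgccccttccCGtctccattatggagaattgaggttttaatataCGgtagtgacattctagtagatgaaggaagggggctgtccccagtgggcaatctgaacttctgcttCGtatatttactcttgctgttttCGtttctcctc
GREB1L, chr18:21241982-21242231, plus strand: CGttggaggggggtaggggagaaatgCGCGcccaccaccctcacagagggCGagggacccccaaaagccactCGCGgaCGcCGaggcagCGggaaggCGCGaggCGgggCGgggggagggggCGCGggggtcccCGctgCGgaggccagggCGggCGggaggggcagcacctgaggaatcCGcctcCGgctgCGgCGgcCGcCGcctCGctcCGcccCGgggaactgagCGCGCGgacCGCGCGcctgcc
The CDS1 promoter holds 29 CG pairs, and 18.6% of 15100 promoters of that length hold at least as many. The GREB1L promoter holds 34 (8.89%) and the METTL9 promoter 6 (77.0%). Other promoters of these kinds of zones differ: that of ITGAV, in a flattened zone, holds 18 (50.0%), and those of SLC25A18, ATP6V1E1 and BCL2L13, in the zone at CECR2, hold 2, 13 and 12. These examples do not sort the zones by CpG content. Windows of 20 kb cannot place initiation at a promoter.

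Features of the profile the size of single zones lost more contrast than longer ones in both day 14 libraries. The profile was split by running means into features of 100 to 500 kb, about the size of single zones, and features above 500 kb, the size of replication domains. Day 14 replicate 1 kept 30.7% of the untreated slope at 100 to 500 kb and 46.7% above 500 kb. Replicate 2 kept 55.4% and 84.1%. Below 100 kb replicates 1 and 2 kept 22.03% and 59.5%. The shortest features were thus the least kept in replicate 1 but not in replicate 2. The slopes below 100 kb were 0.442, 0.546 and 0.239 in untreated libraries and 0.0901 and 0.243 at day 14. Replicate 2 thus lay within the untreated range there. The ratio of the slope at 100 to 500 kb to that above 500 kb was 0.938, 0.934 and 1.01 in untreated libraries and 0.629 and 0.630 at day 14. Although the day 14 libraries differ in amplitude, this ratio was 65.6% and 65.7% of the untreated mean in them, below every untreated library (exact permutation p = 0.2, adjusted 0.24). The measure was chosen after the data were seen. It lay below all untreated values in 22 of 22 chromosomes in both day 14 libraries: the highest day 14 value was 0.777 and the lowest untreated value 0.888. The chromosomes of a library are not independent, so this counts agreement within 5 libraries.

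The same change shows without a reference profile. The correlation of polarity between windows 200 kb apart, as a share of that between adjacent windows, was 27.2% to 32.4% in untreated libraries and 53.2% and 53.7% at day 14. At 400 kb it was 2.07% to 5.21% without drug and 19.7% and 22.6% at day 14. Polarity was thus similar over longer distances at day 14, relative to its similarity between neighbours. These shares describe the libraries and were not tested.

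**Figure D2:**
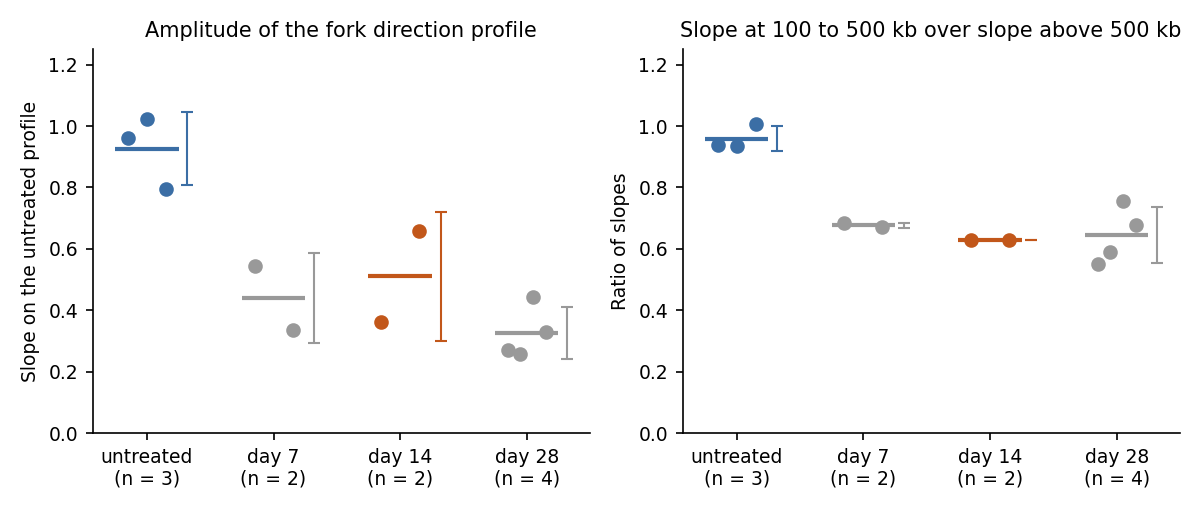
Slope of each library on the untreated profile (left; a value of 1 is equal amplitude) and ratio of its slopes at 100 to 500 kb and above 500 kb (right). Points are libraries, bars group means and error bars SD; the day 14 libraries differ in slope (0.362 and 0.659) but not visibly in ratio (0.629 and 0.630).

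The profile around initiation zones showed where contrast was lost. The polarity 80 kb to the right of a zone's centre minus that 80 kb to the left was 36.3% of the untreated mean in day 14 replicate 1 and 61.8% in replicate 2. At 200 kb these shares were 42.0% and 74.0%, and at 400 kb 54.5% and 90.1%. At 500 kb they were 48.1% and 112%, where single untreated libraries had 86.5% to 111%. Replicate 2 was thus near or within the untreated spread from 300 kb outward (89.6% at 300 kb), and replicate 1 stayed below it at each distance.

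**Figure D3:**
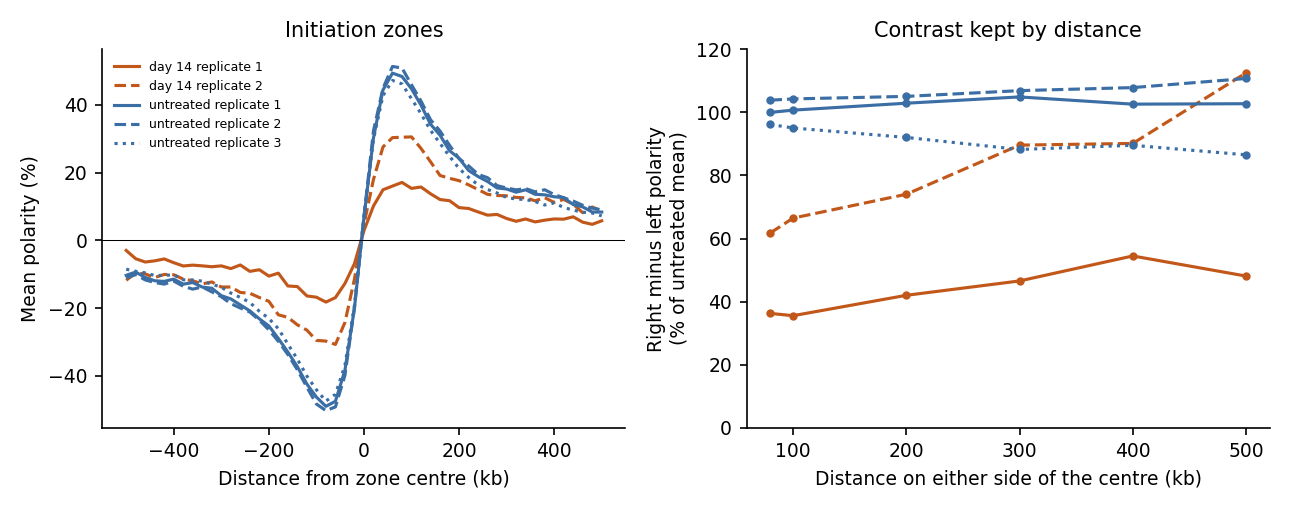
Mean polarity around the centre of initiation zones in each library (left) and polarity to the right minus polarity to the left of the centre, as a percentage of the untreated mean (right), against distance in kb. Untreated libraries are blue and day 14 libraries orange; in both day 14 libraries a larger share was kept at 400 kb (54.5% and 90.1%) than at 80 kb (36.3% and 61.8%).

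Starts of long genes, where initiation is often found next to active promoters, flattened in the same way. Over 2639 protein-coding genes of at least 100 kb, polarity along the direction of transcription was compared between 20 kb inside the start and 100 kb before it. The step was 39.2, 43.2 and 36.8 points in untreated libraries and 11.4 and 25.6 points at day 14, which is 28.8% and 64.4% of the untreated mean. Both day 14 libraries lay below all untreated ones. From 300 kb before to 300 kb inside, the step was 12.0, 14.4 and 10.7 points without drug and 5.81 and 13.6 points at day 14, so that replicate 2 was within the untreated range. Inside long genes as a whole, polarity along transcription was 6.96, 9.29 and 5.47 points in untreated libraries and 2.66 and 6.69 points at day 14. These overlapped (exact permutation p = 0.4).

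**Figure D4:**
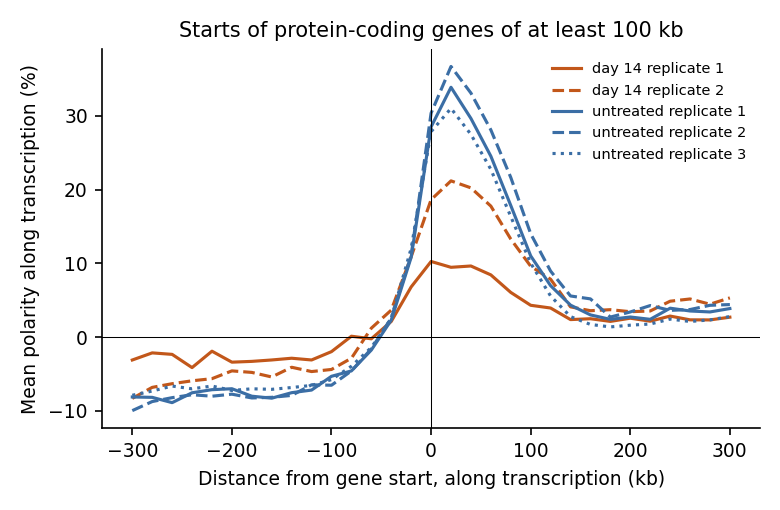
Mean polarity along the direction of transcription (positive where forks run with the gene) against distance from the start of 2639 protein-coding genes of at least 100 kb, by library. The peak just inside the start is lower in both day 14 libraries (orange, 9.46 and 21.2 at 20 kb) than in the untreated ones (blue, 31.0 to 36.7).

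Over the genome in 100 kb windows, 2604 of 24768 windows (10.5%) passed an adjusted p of 0.05 in limma, 1347 with higher and 1257 with lower polarity. Of these, 2359 moved against the sign of the resistant profile, and in 565 the day 14 mean took the opposite sign. The median size of polarity in these windows was 62.5 points in untreated cells and 21.02 at day 14, against 30.7 and 21.4 over all windows. The share that passed went from 5.06% of windows with little direction in the resistant lines to 21.8% of the most directional ones. At an unadjusted p under 0.05 there were 7891 windows (31.9%), and in 47.8% of windows the groups did not overlap. With noise weights 1314 windows passed, and without untreated replicates 1, 2 or 3 the counts were 23, 0 and 0 (4661, 4725 and 6231 at an unadjusted p under 0.05). Among 20 kb windows 0 of 112553 (0%) passed in limma, with 21374 (19%) at an unadjusted p under 0.05, and in 35.9% the groups did not overlap.

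EGFR itself, the target of the drug, has a zone at each end. A strong zone at the gene's start (chr7:54920001-55060000) had a rise of 142, 156 and 120 points in untreated libraries and 60.9 and 53.8 points at day 14. Both day 14 libraries lay below all untreated ones (difference -81.8 ± 19.2, SE, limma adjusted p = 0.00889, and 0.0206 with noise weights). A weaker zone at its far end (chr7:55180001-55380000) had 68.8, 58.3 and 66.0 points without drug and 57.5 and 85.3 points at day 14, which overlap (adjusted p = 0.719). The difference between the zones was not tested. Mean polarity within the gene (chr7:55019017-55211628) was 33.5, 46.5 and 25.0 in untreated libraries and 17.4 and 7.20 at day 14. Polarity along the gene was less positive in both day 14 libraries, without passing the test over genes (limma adjusted p = 0.249).

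Genes were grouped in 11 lists by role. Zones touched by list genes passed in 59 of 96 cases (61.5%, against 54.1% of all zones), and the median rise went from 111 to 53.0 points. Over all zones 1036 of the 1037 that passed were lower, and the median rise went from 102 to 49.2 points. The counts of single lists below, and their direction, are to be read beside these values. No list was tested against the other zones. The single genes below were picked after their values were seen, and zones next to each other can share genes.

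Of the zones at receptors and ligands of the EGFR and bypass routes, 6 of 9 passed, all lower. IGF1R, the insulin-like growth factor receptor, has a zone on each side. The zone at chr15:98940001-99160000 had 158, 163 and 139 points without drug and 30.1 and 66.9 at day 14 (adjusted p = 0.00574), and that at chr15:98360001-98680000 went from 150 ± 14.5 to 79.7 ± 26.9. The zone at ROS1, an oncogenic receptor kinase, went from 147 ± 11.2 to 60.2 ± 13.2 points. The zone at ERBB2, the partner receptor HER2, had 81.1, 82.8 and 82.1 points without drug and -2.83 and 45.1 at day 14, a call lost with noise weights (adjusted p = 0.0529). AXL, a receptor linked to drug tolerance, had a zone with 120.6 ± 17.6 and 73.1 ± 2.86 points that missed the threshold (adjusted p = 0.0518). The zone at MET gave 117 and -15.9 points in the day 14 libraries, on either side of the untreated values of 47.7 to 63.8.

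Downstream of the receptors, 7 of 10 zones at RAS, MAPK, PI3K and SRC genes passed, all lower. The zone at NF1, which switches RAS off, went from 109 ± 13.4 to 32.6 ± 10.6 points. The zones at PIK3CA and SRC did not pass. Across AKT1, the kinase below PI3K, the rise from the left to the right flank of the gene was 53.2, 53.1 and 55.8 points without drug and -33.6 and -12.1 at day 14 (limma adjusted p = 0.0375).

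Genes of cell cycle entry had zones that passed in 4 of 9 cases, all lower. The zone at E2F3, a factor that drives S phase genes, went from 129 ± 13.8 to 45.6 ± 3.21 points. The zone at RB1, which holds E2F in check, went from 90.3 ± 18.6 to 31.6 ± 0.762 points, a call lost with noise weights (adjusted p = 0.0725). MYC, a growth factor-induced transcription factor, lies in a zone with 147, 138 and 125 points without drug and 114 and 111 at day 14. Both day 14 values were below all untreated ones, by a small margin, and the difference of -24.1 ± 18.6 (SE) did not pass (adjusted p = 0.269). Across CCNE1, the cyclin of S phase entry, the rise was 96.8, 117 and 96.0 points without drug and 34.4 and 26.4 at day 14 (adjusted p = 0.0461).

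The genes that build and fire origins had 8 of 12 zones that passed, all lower. Zones at the helicase subunits MCM5 and MCM6 went from 116 ± 8.16 to 29.1 ± 7.86 and from 147 ± 13.8 to 41.2 ± 27.6 points, and both calls held in all 11 refits. The zone at ORC3, an origin recognition subunit, had 181, 158 and 144 points without drug and 22.2 and 100.2 at day 14. The zone at GINS1, part of the active helicase, had 82.9 ± 11.6 and 97.3 ± 14.6 points and did not pass. Across CDC6, which loads the helicase, the right flank minus the left was -88.9, -98.3 and -82.2 points without drug and 12.3 and -15.2 at day 14 (adjusted p = 0.0375). Across MCM4 it rose by 80.9, 96.7 and 76.5 points without drug and by 9.92 and -1.86 at day 14 (adjusted p = 0.0375).

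Among fork enzymes and nucleotide supply 5 of 9 zones passed, all lower, including those at PCNA, the sliding clamp (155 ± 13.5 to 58.3 ± 46.5 points), and TOP1, which unwinds supercoils (156 ± 10.7 to 64.2 ± 31.8). Of the zones at checkpoint and repair genes 5 of 6 passed, all lower, including ATR, the kinase that senses stalled forks (90.4 ± 21.8 to 15.4 ± 28.2), and WEE1, which restrains CDK1 (80.7 ± 5.98 to 16.3 ± 17.5). Of the mitotic genes' zones 5 of 9 passed, all lower. That at CDK1, the mitotic kinase, had 136, 165 and 133 points without drug and 33.4 and 95.0 at day 14. At PCNA, TOP1, ATR, WEE1 and CDK1 both day 14 libraries lay below all untreated ones, with replicate 1 lower than replicate 2.

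Zones at apoptosis genes passed in 6 of 9 cases, all lower. At BCL2, which blocks apoptosis, the rise was 182, 188 and 152 points without drug and 64.8 and 63.0 at day 14, with close agreement between the day 14 libraries (adjusted p = 0.00509). At BCL2L11, the gene of the death inducer BIM, it went from 117 ± 9.29 to 56.5 ± 46.3 points, a call lost with noise weights (adjusted p = 0.0792). Across CASP9, the initiator caspase, the right flank minus the left was -42.9, -21.04 and -42.8 points without drug and 30.8 and 34.2 at day 14 (adjusted p = 0.0451).

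Among mesenchymal, YAP and TEAD genes 7 of 11 zones passed, all lower, including ITGB1, the integrin beta 1 subunit (127 ± 19.8 to 38.5 ± 26.3 points), and CD44, a hyaluronan receptor (125 ± 19.9 to 50.6 ± 13.1). Among epithelial and lung genes 2 of 7 zones passed, both lower. The zone shared by the keratins KRT8 and KRT18 went from 111 ± 3.39 to 62.2 ± 24.4 points and lost its call with noise weights (adjusted p = 0.129). The zone at CDH1, E-cadherin, had 77.5 ± 24.9 and 46.4 ± 34.5 points and did not pass. Across CEACAM6, a surface adhesion protein, the rise was 34.8, 49.2 and 49.3 points without drug and -33.2 and -17.2 at day 14 (adjusted p = 0.0419). At common fragile sites 6 of 9 zones passed, all lower, among them PTPRG, a receptor phosphatase (142 ± 5.80 to 43.6 ± 22.9), while DAB1, a reelin adaptor, had 59.6 ± 10.96 and 61.4 ± 17.9 points.

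**Figure D5:**
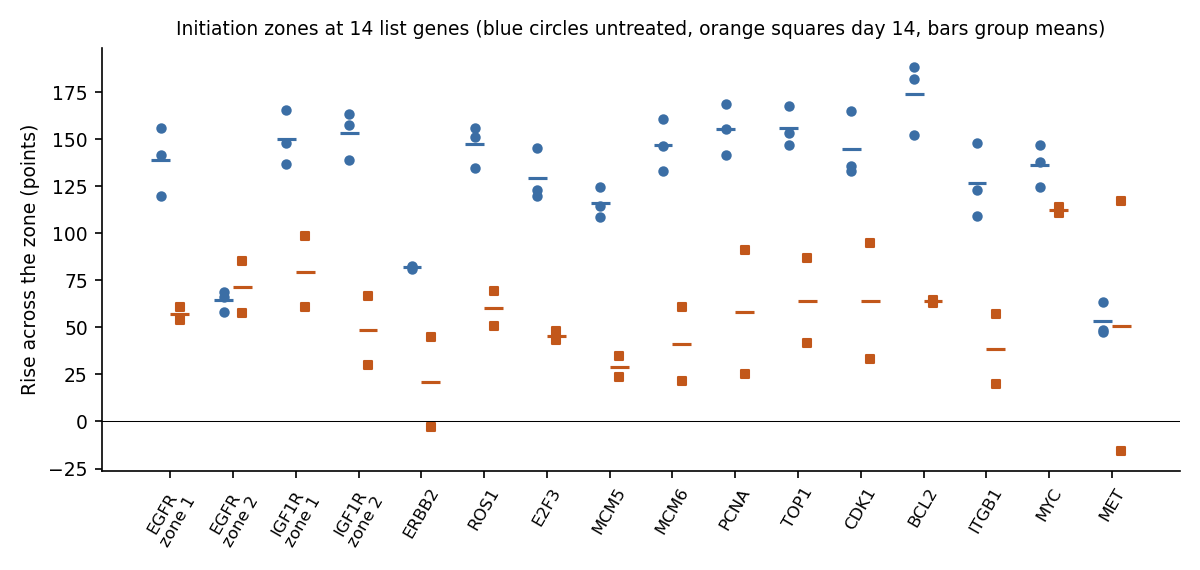
Rise of polarity in points across 16 initiation zones at 14 list genes, chosen after their values were seen. Circles are the 3 untreated and squares the 2 day 14 libraries, with bars at group means; the squares lie below the circles at most genes, but overlap or straddle them at the second EGFR zone and at MET.

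Across whole genes, 516 of 17090 (3.02%) passed for the rise from flank to flank, 150 higher and 366 lower, and 487 of them moved against the resistant sign. Of 224 list genes tested the groups did not overlap in 45.1%, against 42.1% of all genes, and 6 passed, which are AKT1, CCNE1, CDC6, MCM4, CASP9 and CEACAM6. None of these 6 calls held with noise weights, under which 30 genes passed over all, or without any 1 of the untreated libraries. For mean polarity inside genes 0 of 18137 (0%) passed in limma, with 4815 (26.5%) at an unadjusted p under 0.05, of which 73 were among 239 list genes. In 128 list genes (53.6%) the groups did not overlap, against 45.1% of all genes. Among the list genes of smallest p, TOP2A, the topoisomerase of mitotic chromosomes, had -34.9, -46.8 and -31.7 without drug and 16.7 and 29.2 at day 14 (adjusted p = 0.0729).

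Every chromosome flattened. The slope of each chromosome on the resistant profile was lower at day 14 in 22 of 22 (100%) by limma, in which the chromosomes share the same 5 libraries and are not separate replicates. It was 55.9% of the untreated slope on chromosome 17, the lowest share, and 61.9% on chromosome 16, the highest. All 22 calls were lost when any 1 untreated library was left out. Relative to each library's mean over chromosomes, 3 of 22 (13.6%) passed, a measure chosen after the data were seen. Leaving out a library in turn gave 0 to 10 such chromosomes. Chromosomes 18 and 21 were lower by log2 differences of -0.09 and -0.07 (adjusted p = 0.0235 and 0.0469) and chromosome 9 was higher by 0.06 (0.0469). Windows were also split by the number of midpoints of protein-coding genes within 500 kb. With 0 midpoints, day 14 replicates 1 and 2 had 43.7% and 88.0% of the untreated amplitude, and with over 20 midpoints 40.04% and 68.2%. Single untreated libraries spread from 72.1% to 120% in the windows with 0 midpoints, so replicate 2 lay within their range there.

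No library measure passed a test between day 14 and the other times on drug, and the designs could not reach 0.05. The smallest exact permutation p is 0.333 for 2 libraries against 2 and 0.0667 for 2 against 4. Amplitude was 0.440 ± 0.147 at day 7 (SD, n = 2) and 0.326 ± 0.0853 at day 28 (n = 4), against 0.510 ± 0.210 at day 14 (exact permutation p = 0.667 and 0.267). The ratio of short to long features was 0.677 ± 0.00778 at day 7 and 0.644 ± 0.0916 at day 28, against 0.630 at day 14 (exact permutation p = 0.333 and 0.933). All these comparisons gave an adjusted p of 0.667 or more over 6. The 2 resistant lines had amplitudes of 0.279 and 0.633 and ratios of 0.815 and 0.853, and were not tested against day 14. The labels of 2 libraries titled day 28 give 7 days of treatment. Between day 14 and day 7, 0 of 18878 windows of 100 kb (0%) passed in limma, with 1890 at an unadjusted p under 0.05. Between day 14 and day 28, 2 of 24394 (0.0082%) passed, and neither passed without the 2 libraries of conflicting labels.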

How the data were processed

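TrAEL-seq libraries of 13 PC9 samples were used as a single deposited table of 308844 windows of 20 kb, spaced 10 kb. The authors' deposited values are a polarity score per window from -100 to 100, per the file headers; its formula and sign were not stated. Trim Galore 0.6.5 and Bowtie2 2.4.1 are named in the submitters' processing notes. Chromosome ends match GRCh38. Depth is unknown, so no counting error was computed.

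Groups came from the titles. Windows that did not overlap were taken on chromosomes 1 to 22, and 100 kb means from at least 3 of 5 windows. Profiles were smoothed over 4 windows to call zones, and rises were means of 3 windows at each end. limma 3.58.1 (lmFit, eBayes with trend, Benjamini-Hochberg over all features tested) was run on the 5 libraries, and library values were compared by exact permutation. Comparisons with day 7 and day 28 used all 13 libraries. Fits without weights were tested on simulated data. With day 14 libraries noisier than untreated ones, as here, p-values of unchanged features came out too small. Unadjusted counts, and calls built on those p-values, may thus be too many. Counts of calls with array weights are given for windows of 100 kb, zones and genes by rise, but the weighted fit was not simulated. At an unadjusted p under 0.05, array weights in limma gave 13106 windows of 20 kb and 6109 of 100 kb. They gave 985 zones and 3307 genes by mean polarity.

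Named zones are the 4 largest decreases and increases that passed without overlap at least 1 Mb apart, and the 4 smallest differences among strong zones; 1 increase qualified. Named genes are list genes that passed, and EGFR. Genes at zones were added after their values were seen. Members and lists were chosen with earlier results of these data known. Alternatives covered libraries, weights, scale, missing values, window phase and zone source.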

Additional observations from a re-analysis of the deposited data

Results flagged for a closer look

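The mitochondrial genome, which none of the comparisons above used, had a polarity of -58.6, -43.1 and -39.9 in untreated libraries and -68.7 and -78.2 at day 14. The difference was -26.2 and the groups did not overlap (exact permutation p = 0.2, the smallest possible, adjusted 0.24). The means at day 7 and day 28 were -66.3 ± 5.75 (SD, n = 2) and -64.3 ± 9.87 (n = 4).

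Day 14 and day 28 differed in 2 windows of 100 kb in limma. Neither call held without the 2 day 28 libraries of conflicting labels, and 0 windows passed without day 28 replicate 2 (2580 at an unadjusted p under 0.05). Polarity was 75.6 and 63.0 in the day 14 libraries at chr4:96400001-96500000, against 3.66 ± 15.0 at day 28 and -5.33 to 10.95 in untreated cells (adjusted p = 0.0190). It was 32.7 and 67.3 at chr21:16400001-16500000, against -10.2 ± 4.67 at day 28 and -24.6 to -4.08 in untreated cells (adjusted p = 0.0289). No protein-coding gene lies in either window, the nearest being PDHA2 at 558537 bases and USP25 at 519937 bases.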

How the results depend on the processing

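Amplitude, zone rise, termination fall, gene orientation and the ratio of slopes kept their direction under every alternative tried; leaving out a library gave differences of -0.564 to -0.267, -60.9 to -36.6, -54.4 to -33.7, -4.58 to -0.554 and -0.330 to -0.307, and of -31.9 to -21.4 for mitochondrial polarity. Counts of calls moved much more; the cause was not tested. Leaving out a library gave 0 to 25394 windows of 20 kb, 0 to 10039 of 100 kb, 169 to 1518 zones, 0 to 4918 genes by mean polarity, 0 to 4292 by rise, 0 to 22 chromosomes, 1 to 435 windows against day 7 and 0 to 1365 against day 28. Where a group had 1 library left, it was assumed to vary like the others. With all 13 libraries, 667 windows of 20 kb, 465 genes by mean polarity and 876 by rise passed; without the 2 of conflicting labels, 286 windows and 114 genes by mean polarity. Noise weights gave 1314 windows of 100 kb, 661 zones and 30 genes by rise. Division by amplitude gave 0 windows of 100 kb, zones and genes by rise in limma (5413, 358 and 2670 at an unadjusted p under 0.05). Among the 64 named zones that had passed, 56 kept their direction under this division. The sign turned at those of PTPN11 (40.7), ORC2 (12.5), MRE11 (2.74), APAF1 (37.5), ZEB2 (14.7), SPARC (11.7), KRT8 (1.15) and GRHL2 (14.0). Zones that had not passed are left out of this list. A variance prior without trend gave 792 genes by rise. Zones called in untreated libraries gave 1718 of 3044, and a minimum of 60 points 573 of 817. Against day 28, 1 window passed without the libraries of conflicting labels, neither of the earlier 2 and in the lower direction, and 18 passed with them placed at day 7. Of 64 named zones 42 passed with noise weights and 10 in all 11 refits.

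Replicate numbers are shared between groups, but nothing ties same-numbered libraries together (correlation of deviations -0.0489 and 0.166). With the replicate number as a block 37 windows of 20 kb and 0 chromosomes passed; 44 of the 64 named zones and 2 of the 6 named genes stayed called.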
